A study of Mus musculus with 6 samples.

Results

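The genes described here encode heat shock proteins and other molecular chaperones, together with the heat shock factors Hsf1 and Hsf2. They were chosen by symbol: the HSP70, HSP90, HSP110 and small heat shock protein genes, the DnaJ genes of classes A, B and C, the subunits of the cytosolic chaperonin TRiC (Tcp1 and the Cct genes), the mitochondrial chaperonin pair Hspd1 and Hspe1, and the 2 factors. Symbols marked as pseudogenes were left out. The rule found 81 genes among 48368 symbols, and 73 of them had enough counts to be tested. The other 8 (Dnajb7, Dnajb8, Dnajb13, Dnajc6, Dnajc22, Cct6b, Hspb3 and Hspb9) stayed at or under 0.432 CPM (counts scaled to a common library size) in every library and are counted as untested.

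Chaperones bind unfolded or partly folded proteins and help them fold, assemble or be degraded. HSP70 proteins hold exposed stretches of a chain in cycles of ATP hydrolysis, DnaJ proteins deliver clients to them and start the hydrolysis, and HSP110 proteins exchange the nucleotide so that the client is released. HSP90 acts late in folding on kinases and receptors, chaperonins enclose a client in a ring, and small heat shock proteins hold unfolded proteins without ATP. Heat shock factors switch on the inducible members under proteotoxic stress, while many other members are made in all cells, and in tumour stroma HSF1 is known for supporting the programme of activated fibroblasts.

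RNA was sequenced from cultured primary cancer-associated fibroblasts (CAFs), the fibroblasts of a tumour, of MMTV-PyMT mice, in which the mouse mammary tumour virus promoter drives polyomavirus middle T antigen and mammary tumours form. Hic-5, encoded by Tgfb1i1, is an adaptor of focal adhesions, and the series asks what differs between Hic-5+/- (HET) and Hic-5-/- (KO) cells. There were 3 libraries of each label, all from tumour-derived cells grown in medium with serum, so the MMTV-PyMT transgene and the culture were shared and no Hic-5+/+ library was compared. Animal age was not stated. The series text calls the libraries technical triplicates, although the titles carry different numbers apart from 1 number shared by HET replicate 3 and KO replicate 3. P-values therefore measure only the spread between these libraries.

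Library totals ran from 24954273 to 42470598 estimated counts, and 17584 genes were tested. Tgfb1i1 (chromosome 7, 128246812 to 128255699, GRCm38) was measured at 223, 348 and 125 CPM under HET and 90.4, 0.232 and 156 CPM under KO (replicates 1 to 3), and KO replicate 2 alone was close to 0. KO replicates 1 and 3 held Tgfb1i1 transcript, the latter within the HET range, so the transcript level does not bear out the KO label in these 2 libraries. Counts per gene do not show whether that transcript is intact, so the genotype cannot be read from them. HET and KO below name the labels, and every direction is one between labels. The 10 fibroblast markers summed to 16845, 8049 and 7567 CPM in HET and 5483, 3158 and 6049.5 CPM in KO, with every KO library below every HET library. Of the 9 tested, 8 were lower in KO by value (median log2 fold change -1.09), 1 at an unadjusted p under 0.05 in edgeR. The part of this difference in the values below was not tested. KO replicate 2 was lowest in that sum, with Col1a2 at 0.491 CPM, and highest in the sum of 15 proliferation markers. The sum of 10 epithelial markers (7 tested) ranged from 17.8 to 65.8 CPM over the HET libraries and was highest, at 89.8 CPM, in KO replicate 2 (28.4 and 28.5 CPM in the other KO libraries). Of the 7, 6 were higher in KO by value, 3 at an unadjusted p under 0.05, with Krt18 at 37.9 CPM in KO replicate 2 and at most 2.93 CPM elsewhere, and Cdh1 at 14.6 and at most 1.47 CPM. Of the 7, Krt19 alone was lowest in KO replicate 2. The part of epithelial transcripts in the values below was not tested. Leukocyte markers (8 genes, 5 of them tested) summed to 1411 CPM in HET replicate 2, to 1136 CPM in KO replicate 3 and to 17.0 to 50.5 CPM in the others, where Adgre1 was at 0 in all 4 libraries. Values in a row follow replicates 1, 2 and 3.

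No chaperone gene differed between the labels at an adjusted p under 0.05 in edgeR's quasi-likelihood test with Benjamini-Hochberg adjustment, and neither did any of the 17584 genes (0%). At an unadjusted p under 0.05 stood 8 of the 73 tested members, against 8.59% of all genes, 5 of them higher in KO (4.3% of all genes) and 3 lower (4.29%). The higher ones were the chaperonin subunits Cct3, Cct6a and Cct7 and the DnaJ genes Dnajb1 and Dnajc2, and the lower ones were Hspa2, Hspb6 and Dnajc1. All KO libraries lay outside the range of the HET libraries in 16 members, where the share over all genes was 15.5%: 10 members were higher (8.09%) and 6 lower (7.4%). As shares of the tested members these counts were 11.0% and 21.9%. The difference from all genes was not tested. The median log2 fold change of the tested members was -0.03, beside 0.01 over all genes, with 35 members above 0 and 38 below. DESeq2 called 1 member, Hspa2, against 1.05% of all genes with an adjusted p. The unadjusted count was 2 members without HET replicate 2, HET replicate 3 or KO replicate 2, 5 without HET replicate 1 and 12 without KO replicate 1. It was also 2 without HET replicate 2 and KO replicate 3 together. Over all genes the unadjusted count was 1511 with all libraries. It was 648, 1085 and 917 without HET replicate 2, HET replicate 3 and KO replicate 2 in turn. Without HET replicate 1 it was 1597, and without KO replicate 1 it was 1704. Without HET replicate 2 and KO replicate 3 together it was 987.

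The labels divided the chaperone classes unevenly. All 8 tested TRiC subunits were higher in KO by value, with a median log2 fold change of 0.47, as were all 3 HSP110 genes (0.52), both mitochondrial chaperonin genes (0.50) and both heat shock factors (0.39). All 6 tested genes classed as small heat shock proteins were lower by value, with a median of -0.44. In all of them but Hspb6 the log2 fold change was smaller than its standard error, and without HET replicate 2 that of Hspb1 was 0.14. The direction is therefore not settled gene by gene. This class follows the Hspb symbol alone. It includes Hspb11 (-0.38 ± 0.47), and it leaves out Cryab (-0.25 ± 0.89), which was listed with the co-chaperones. The 11 HSP70 genes divided into 5 higher and 6 lower (median -0.06), and the 3 HSP90 genes into 1 and 2 (-0.06). Among DnaJ genes, class A had 3 of 4 higher (0.17), class B 2 of 10 (-0.29) and class C 9 of 24 (-0.13). By compartment, the median was 0.14 for the cytosol or nucleus (24 of 43 higher), 0.12 for the mitochondrion (5 of 8), -0.18 for the endoplasmic reticulum (4 of 14) and -0.42 for the 8 tested genes without an assigned compartment (2 higher). Over all genes, 50.9% were higher in KO by value. Leaving out 1 library turned the sign of the medians of HSP90, HSP70, DnaJ class B, the endoplasmic reticulum and the unassigned genes, but not of the other classes and compartments. Each of these is a description of values that did not pass the adjusted test. In bulk RNA of a culture, fewer cells of a type and less RNA per cell cannot be told apart.

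**Figure D1:**
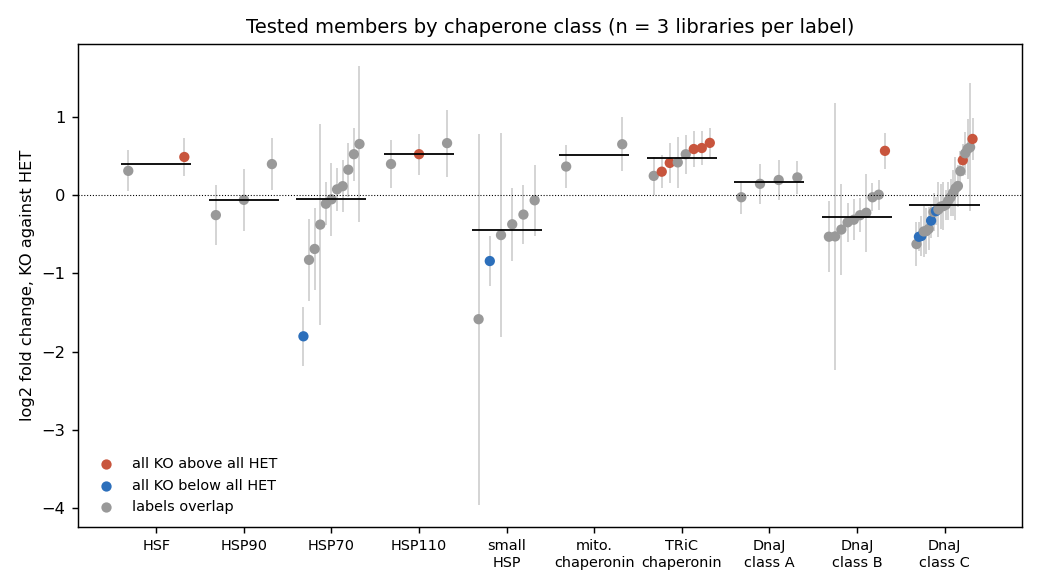
Log2 fold change of each tested member, KO against HET (y axis), by chaperone class (x axis), red where all KO libraries are above all HET libraries, blue where all are below and grey where the labels overlap; grey lines are standard errors from edgeR, black bars are class medians, and n is 3 libraries per label. All 8 TRiC subunits lie above 0 and all 6 small heat shock protein genes below it, while Hspa2 in the HSP70 class is the lowest point at -1.80.

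Hsf1 and Hsf2 encode the transcription factors that bind heat shock elements. Hsf1 (chromosome 15, 76477422 to 76501913) stood at 28.7, 19.8 and 26.3 CPM in HET and 38.4, 29.4 and 24.6 CPM in KO libraries. The labels overlapped, since KO replicate 3 lay between the HET libraries. Its log2 fold change was 0.31 ± 0.26 (SE; edgeR adjusted p = 0.714), and leaving out KO replicate 1 or HET replicate 2 gave 0.11 or 0.16. Hsf2 (chromosome 10, 57486385 to 57513135) stood at 13.3, 15.0 and 12.3 CPM in HET and 19.1, 22.6 and 15.1 CPM in KO, with the lowest KO library just above the highest HET library. Its log2 fold change was 0.48 ± 0.25 (edgeR adjusted p = 0.594). HSF1 is regulated mostly at the protein level, which RNA does not show.

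Hspa1a and Hspa1b encode the stress-inducible HSP70 and lie beside each other on chromosome 17 (34969190 to 34972156 and 34956436 to 34959238, both on the minus strand). Their promoters are shown because the heat shock element in them is the textbook target of HSF1 and because the 2 copies cannot be separated well by short reads. The lines give the 120 bases before each start site, 5′ to 3′, from RefSeq on GRCm38.p6 (chr17:34972157-34972276 and chr17:34959239-34959358), with capitals for the match to GAANNTTC, a heat shock element of 2 units.
Hspa1a: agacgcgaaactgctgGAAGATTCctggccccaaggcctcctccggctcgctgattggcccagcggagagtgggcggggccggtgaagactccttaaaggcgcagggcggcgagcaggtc
Hspa1b: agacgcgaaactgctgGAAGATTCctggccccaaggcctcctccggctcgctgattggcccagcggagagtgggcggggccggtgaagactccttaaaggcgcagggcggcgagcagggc
The 2 stretches differ at 1 base, and the 250 bases before the start sites are 98.8% identical. Of the 50-base windows of the Hspa1a transcript, 58.8% occur unchanged in the Hspa1b transcript and 0% in Hspa8, so the division of reads between the 2 copies is uncertain.

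Hspa1b stood at 70.6, 65.0 and 136 CPM in HET and 89.6, 33.9 and 29.5 CPM in KO. Hspa1a stood at 39.3, 36.9 and 81.3 CPM in HET and 55.3, 18.5 and 23.8 CPM in KO. For both genes HET replicate 3 was highest, KO replicates 2 and 3 were lowest, and KO replicate 1 lay among the HET libraries. The ratio of Hspa1b to Hspa1a ran from 1.24 to 1.83 over the 6 libraries, with Hspa1b above Hspa1a in each. The log2 fold changes were -0.83 ± 0.52 for Hspa1b and -0.69 ± 0.52 for Hspa1a, and neither passed the edgeR test (adjusted p = 0.639 and 0.679). The libraries of Hspa1b spanned 4.62-fold from the lowest to the highest. Its means were 90.7 ± 39.7 CPM in HET and 51.0 ± 33.5 CPM in KO (SD, n = 3 each), a 1.78-fold difference. Without HET replicate 3 the log2 fold changes were -0.41 and -0.22, and without KO replicate 1 they were -1.51 and -1.31.

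Heat shock elements were looked for, on both strands, in the 250 bases before the start sites of the 66 members with an entry in the RefSeq promoter table. A unit of 2, GAANNTTC or TTCNNGAA, was found in 16 members (24.2%) and in 14.5% of all 27025 genes. A unit of 3, GAANNTTCNNGAA, which contains both units of 2, was found in Dnajb6, Hspd1 and Hspe1, and in 0.514% of all genes. The stretches below are shown as the longest matches and as examples in other classes, with capitals for the matched bases.
Hspd1: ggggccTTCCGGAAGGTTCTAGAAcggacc
Hspe1: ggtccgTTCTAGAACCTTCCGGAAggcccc
Dnajb6: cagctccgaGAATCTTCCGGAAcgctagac
Hspb1: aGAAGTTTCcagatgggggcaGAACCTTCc
Hsph1: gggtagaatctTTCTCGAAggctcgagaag
Dnaja1: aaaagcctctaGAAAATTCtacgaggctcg
Hspb6: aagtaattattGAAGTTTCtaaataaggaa
Cct2: ccccaagtgaaGAAGTTTCtagcaggacct
Cct5: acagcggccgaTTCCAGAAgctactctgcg
Hspd1 and Hspe1 are transcribed in opposite directions from 1 shared promoter, so their lines are the 2 strands of the same stretch, chr1:55088053-55088082. The others lie at chr5:29735843-29735872 (Dnajb6, plus strand), chr5:135887801-135887830 (Hspb1, plus), chr5:149636351-149636380 (Hsph1, minus), chr4:40722333-40722362 (Dnaja1, plus), chr7:30553170-30553199 (Hspb6, plus), chr10:117063399-117063428 (Cct2, minus) and chr15:31601862-31601891 (Cct5, minus). A match describes the letters and is not evidence of binding.

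The tested members with such a match lay on both sides of 0. Of 15, 6 were higher and 9 lower in KO by value, with a median log2 fold change of -0.03, and of 44 matched members without it 21 were higher and 23 lower (-0.04). Among the 9 genes shown in these lines, Hspd1, Hspe1, Cct2, Cct5, Hsph1 and Dnaja1 were higher in KO by value and Hspb6, Hspb1 and Dnajb6 lower. Dnajb1, the cytosolic partner of inducible HSP70, had no match in this window and stood at 58.3, 59.9 and 57.6 CPM in HET and 67.9, 111 and 80.5 CPM in KO. The HET libraries were nearly equal, and every KO library was above them. The log2 fold change of Dnajb1 was 0.56 ± 0.23 (edgeR unadjusted p = 0.0455, adjusted p = 0.579), and 0.34 without KO replicate 2.

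Hspa2 had the largest log2 fold change of the tested members. Hspa2 (chromosome 12, 76404176 to 76406938), an HSP70 gene best known for its role in the male germ line, stood at 53.1, 32.4 and 22.5 CPM in HET and 8.71, 9.14 and 13.1 CPM in KO. Every KO library was below every HET library, and the KO libraries lay closer together than the HET libraries. The means were 36.0 ± 15.6 CPM in HET and 10.3 ± 2.41 CPM in KO (SD, n = 3 each), a 3.49-fold lower mean in KO, and the log2 fold change was -1.80 ± 0.38. Its edgeR adjusted p was 0.579 (unadjusted p = 0.00271), and DESeq2 gave an adjusted p of 0.0139. Without KO replicate 2 the log2 fold change was -1.73, and without HET replicate 2 and KO replicate 3 it was -2.11. DESeq2 was the only fit run on all 6 libraries that called Hspa2. Leaving out 1 library at a time gave log2 fold changes from -2.05 to -1.41.

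The labels overlapped in the other cytosolic HSP70 genes. Hspa8, the constitutive cytosolic HSP70, stood at 1597, 1114 and 1583 CPM in HET and 1636, 1443 and 1430.0 CPM in KO, with overlapping labels and a log2 fold change of 0.07 ± 0.27 (edgeR adjusted p = 0.940). Without HET replicate 2, its lowest library, the log2 fold change of Hspa8 was -0.08. Hspa14, which works at the ribosome with a DnaJ partner, stood at 41.1, 30.7 and 35.3 CPM in HET and 34.8, 77.3 and 41.6 CPM in KO, and KO replicate 2 alone was far above the others. The log2 fold change of Hspa14 was 0.52 ± 0.34, and 0.093 without that library. Hspa1l, the third gene of the chromosome 17 cluster, was between 0.984 and 2.42 CPM throughout.

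Single libraries stood apart in the distant HSP70 relatives. Hspa12a stood at 19.3, 30.9 and 33.5 CPM in HET and 51.1, 0.362 and 12.8 CPM in KO, a 141-fold range in which KO replicate 1 was the highest and KO replicate 2 the lowest library. Its log2 fold change was -0.38 ± 1.28 with KO replicate 2 and 0.20 without it, so the direction turned with 1 library. Over all members, 4 had a library at least 4-fold above or below all others (Dnajb3, Dnajc12, Hspa12a and Hspb7), and 8.99% of all genes did. For Dnajb3 this rests on 0 counts in KO replicate 2 against 2 in HET replicate 1, both under the floor of 3 counts, so no such gap is shown. Dnajb3 stood at 0.0708, 2.53 and 1.57 CPM in HET and 0.318, 0 and 2.62 CPM in KO, and Dnajc12 at 0.354, 3.87 and 1.84 CPM in HET and 2.41, 2.27 and 4.60 CPM in KO, lowest in HET replicate 1. The log2 fold change of Dnajc12 was 0.61 ± 0.82, and leaving out 1 library moved it between 0.12 (that library) and 1.49 (HET replicate 2). Hspa12b stood at 4.71, 4.52 and 13.9 CPM in HET and 29.6, 2.89 and 3.73 CPM in KO, highest in KO replicate 1 as well.

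HSP110 proteins release the nucleotide from HSP70. Hspa4 stood at 285, 309.6 and 414 CPM in HET and 585, 425 and 436 CPM in KO, and all KO libraries were above the HET libraries. Its log2 fold change was 0.52 ± 0.26 (edgeR adjusted p = 0.593). Hsph1, the inducible HSP110, stood at 183, 177 and 185 CPM in HET and 265, 305 and 146 CPM in KO. The HET libraries of Hsph1 were nearly equal, while KO replicates 1 and 2 lay above and KO replicate 3 below them. Hspa4l stood at 12.4, 37.6 and 33.4 CPM in HET and 42.2, 52.6 and 37.0 CPM in KO, with HET replicate 1 apart at the low end. The log2 fold changes were 0.39 ± 0.31 for Hsph1 and 0.66 ± 0.43 for Hspa4l, neither past the edgeR test (adjusted p = 0.687 and 0.645). Leaving out KO replicate 2 or 3 changed that of Hsph1 to 0.18 or 0.66, and without HET replicate 1 that of Hspa4l was 0.31.

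The cytosolic HSP90 pair behaved unlike one another across libraries. Hsp90ab1, the constitutive form, stood at 2318, 1381 and 2089 CPM in HET and 2828, 2845 and 1928 CPM in KO, lowest in HET replicate 2. Hsp90aa1, the inducible form, stood at 574, 569.5 and 657 CPM in HET and 326, 504 and 893 CPM in KO. KO replicate 1 was the lowest and KO replicate 3 the highest library of Hsp90aa1, with all HET libraries between them. The ratio of Hsp90ab1 to Hsp90aa1 was therefore 8.67 in KO replicate 1 and 2.16 in KO replicate 3, wider apart than the HET ratios of 2.42 to 4.04. The log2 fold changes were 0.39 ± 0.34 and -0.06 ± 0.40 (edgeR adjusted p = 0.714 and 0.965). Without HET replicate 2 that of Hsp90ab1 was 0.20. Without KO replicate 1 that of Hsp90aa1 was 0.21, and scaled by library size only it was 0.067, so its direction is not settled.

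TRiC, also called CCT, is a ring of subunits that folds actin, tubulin and other cytosolic proteins. Cct3 (chromosome 3, 88297116 to 88321767) stood at 204, 182 and 205 CPM in HET and 301, 314 and 320.1 CPM in KO. The spread within each label was small, and all KO libraries were well above all HET libraries. For Cct3 the log2 fold change was 0.66 ± 0.19, a 1.58-fold higher mean (edgeR unadjusted p = 0.0113, adjusted p = 0.579; DESeq2 adjusted p = 0.0833). Cct7 (chromosome 6, 85451514 to 85468475) stood at 304, 242 and 283 CPM in HET and 404, 470.4 and 381 CPM in KO, and Cct6a (chromosome 5, 129786998 to 129846371) at 285, 223 and 262 CPM in HET and 329.5, 443 and 384 CPM in KO. In both, all KO libraries were above the HET libraries. Their log2 fold changes were 0.60 ± 0.22 and 0.58 ± 0.23 (edgeR adjusted p = 0.579 for both). Cct2 and Cct4 also did not overlap, with Cct2 at 339, 253 and 309.9 CPM in HET and 357, 379.6 and 371 CPM in KO.

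In the remaining subunits the labels overlapped through HET replicate 1 or KO replicate 1. Tcp1 stood at 502, 321 and 398 CPM in HET and 484, 492 and 468 CPM in KO, and Cct5 at 495, 232 and 322 CPM in HET and 493, 439.8 and 465 CPM in KO. For both genes the KO libraries were close together and HET replicate 1 was the highest library. Cct8 stood at 188, 181 and 196 CPM in HET and 195, 306 and 308 CPM in KO, with KO replicate 1 at the HET level. Cct6b, a paralogue of Cct6a known from testis, was at most 0.235 CPM and was not tested.

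Summed over the Cct genes and Tcp1, TRiC stood at 2553, 1784 and 2210 CPM in HET and 2841, 3141 and 2944 CPM in KO, and HET replicate 2 was the lowest library for every tested subunit. The 15 proliferation markers summed to 1415, 305 and 613 CPM in HET and 1154, 3320 and 907 CPM in KO, with the same libraries, HET 2 and KO 2, at the low and the high end. Of these 15 markers 14 were higher in KO by value, and 1 stood at an unadjusted p under 0.05. KO replicate 2 was also highest in the summed epithelial markers (89.8 CPM), followed by HET replicate 1 (65.8 CPM). The part of these markers in the chaperonin values was not tested. All 8 subunits were higher in KO by value under each alternative fit, with medians from 0.32 to 0.61. Without HET replicate 2 the log2 fold changes of Cct5, Cct4, Cct2 and Tcp1 were 0.19, 0.22, 0.18 and 0.095, against 0.41, 0.41, 0.30 and 0.24 with it. Without HET replicate 1 those of Cct5 and Tcp1 were 0.76 and 0.43. Without KO replicate 2 the median was 0.43, and without HET replicate 2 and KO replicate 3 it was 0.32. The number of subunits at an unadjusted p under 0.05 was 3 over all libraries, where 8.59% of all genes (1511) were. It was 1 without HET replicate 2, HET replicate 3 or KO replicate 2, beside 648, 1085 and 917 genes in all. It was 0 without HET replicate 2 and KO replicate 3 together, beside 987 genes in all.

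The subunits occur in equal numbers in the ring, but their transcripts did not stand at equal levels. Per kilobase of annotated exon, Cct5 stood at 147 and Cct2 at 131 CPM per kilobase on average over the libraries, and Cct3 was lowest at 39.9. Within a library the highest subunit was 3.22 to 5.59 times the lowest, and the coefficient of variation over the 8 subunits was 38.3% to 57.9%. Cct3 and Cct7 (51.3 CPM per kilobase) had among the largest log2 fold changes and the lowest levels per kilobase. Annotated exons include rarely used ones, so a level per kilobase understates a gene with many alternative exons.

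**Figure D2:**
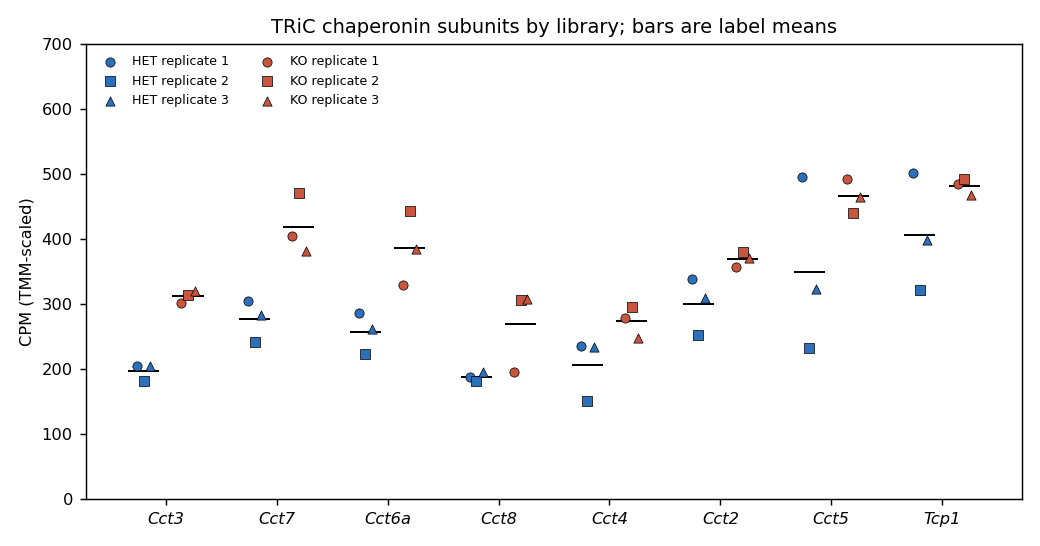
Level of the 8 tested TRiC subunits in each library, in CPM scaled by TMM factors (y axis, from 0), with blue for HET, red for KO, a marker shape per replicate number and bars for label means (n = 3). The KO points lie above all HET points for Cct3, Cct7, Cct6a, Cct4 and Cct2, and overlap them for Cct8, Cct5 and Tcp1.

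In mitochondria, Hspd1 and Hspe1 encode the chaperonin and its lid. Hspd1 (chromosome 1, 55077835 to 55088243) stood at 263, 199.7 and 303 CPM in HET and 246, 419 and 532 CPM in KO. Hspe1 stood at 94.2, 62.1 and 105 CPM in HET and 85.3, 121 and 129 CPM in KO. For both, KO replicates 2 and 3 were the highest libraries, HET replicate 2 was the lowest, and KO replicate 1 lay among the HET libraries. The ratio of Hspd1 to Hspe1 ran from 2.79 to 4.12, a narrower range than either gene's own. The log2 fold changes were 0.65 ± 0.35 and 0.36 ± 0.28 (edgeR adjusted p = 0.600 and 0.685). Without KO replicate 3 that of Hspd1 was 0.39, and without HET replicate 2 that of Hspe1 was 0.17. Without both of these libraries the median of the pair was 0.12 in place of 0.50.

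The other mitochondrial members showed no common direction. Hspa9, the mitochondrial HSP70, stood at 765, 505 and 575 CPM in HET and 665, 469 and 572 CPM in KO, with a log2 fold change of -0.11 ± 0.27. Dnaja3, its J-domain partner, stood at 47.9, 43.8 and 43.4 CPM in HET and 41.4, 63.8 and 52.4 CPM in KO, and KO replicates 2 and 3 were highest. The log2 fold change of Dnaja3 was 0.22 ± 0.21, and leaving out KO replicate 1 or 2 gave 0.36 or 0.056. Dnajc11, an outer membrane protein linked to cristae, stood at 32.8, 32.2 and 34.9 CPM in HET and 30.9, 59.7 and 53.7 CPM in KO, and again KO replicates 2 and 3 were above the rest. Dnajc30 stood at 18.1, 19.7 and 19.6 CPM in HET and 16.8, 13.1 and 15.9 CPM in KO, where all KO libraries were below the HET libraries (log2 fold change -0.33 ± 0.22). Of the exon bases of Dnajc30, 26.2% are shared with Bud23 on the opposite strand, so its values are uncertain.

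Of the endoplasmic reticulum genes, Hspa5 encodes BiP, the HSP70 of that compartment, and Hsp90b1 its HSP90. Hspa5, Hsp90b1 and Dnajc3 were the members with a full endoplasmic reticulum stress element, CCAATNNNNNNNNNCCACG, searched on both strands of the same 250 bases and found in 0.13% of all genes. The matches are shown in capitals on the gene's strand, that of Hsp90b1 being the reverse complement.
Hspa5: acttcaCCAATCGGAGGCCTCCACGacggg
Hsp90b1: agagtgCGTGGTGAGGCACGATTGGtgagt
Dnajc3: ccacaaCCAATCAGCGCCAACCACGacccg
They lie at chr2:34772019-34772048 (plus strand), chr10:86705528-86705557 (minus) and chr14:118937821-118937850 (plus). Hspa5 stood at 1265, 956 and 944 CPM in HET and 995, 848 and 1575 CPM in KO. KO replicate 3 was the highest library of Hspa5 and KO replicate 2 the lowest, so the HET libraries lay within the KO range. Hsp90b1 stood at 1273, 829.8 and 1058 CPM in HET and 981, 508 and 1154 CPM in KO. Dnajc3 stood at 124, 232 and 184 CPM in HET and 169, 124 and 195 CPM in KO. The log2 fold changes were 0.11 ± 0.33, -0.26 ± 0.38 and -0.14 ± 0.31, none past the edgeR test (adjusted p = 0.922, 0.837 and 0.894). That of Hspa5 was -0.19 without KO replicate 3, and that of Hsp90b1 was 0.02 without KO replicate 2, so neither direction is settled.

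Within the endoplasmic reticulum, 10 of 14 members were lower in KO by value. Dnajc1, a membrane J protein that binds BiP (chromosome 2, 18195654 to 18392830), stood at 76.0, 78.5 and 76.4 CPM in HET and 63.3, 46.2 and 49.8 CPM in KO. The HET libraries were nearly equal and all KO libraries were below them. For Dnajc1 the log2 fold change was -0.53 ± 0.19 (edgeR unadjusted p = 0.0271, adjusted p = 0.579). Dnajc25 stood at 31.4, 34.3 and 27.5 CPM in HET and 15.7, 17.0 and 27.6 CPM in KO, and only KO replicate 3 reached the HET range. Dnajb9, a stress-induced J protein, stood at 27.7, 53.2 and 42.0 CPM in HET and 24.6, 15.3 and 45.1 CPM in KO, lowest in KO replicate 2. For Dnajb9 the log2 fold change was -0.53 ± 0.45, and it became -0.24, -0.30 and -1.04 on leaving out KO replicate 2, HET replicate 2 and KO replicate 3 in turn. Dnajb11, a J protein of BiP, was almost level at 85.7, 102 and 82.2 CPM in HET and 77.9, 95.5 and 97.1 CPM in KO, with a log2 fold change of 0.00 ± 0.19. Dnajc14 stood at 113, 122 and 106.3 CPM in HET and 103, 87.1 and 105.6 CPM in KO. All KO libraries were below the HET libraries, but KO replicate 3 and HET replicate 3 were nearly equal. The log2 fold change of Dnajc14 was -0.21 ± 0.18, and -0.13 without KO replicate 2. Of its exon bases, 17.0% are shared with Ormdl2 on the opposite strand. The median over the 14 genes was -0.18, -0.02 without KO replicate 2 and 0.02 without HET replicate 2, so its direction is not settled.

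Small heat shock proteins are abundant in muscle and contractile cells. Hspb6 (chromosome 7, 30552178 to 30555443), known from smooth and cardiac muscle, stood at 41.9, 47.5 and 38.6 CPM in HET and 34.3, 21.6 and 15.4 CPM in KO. All KO libraries were below the HET libraries. For Hspb6 the log2 fold change was -0.84 ± 0.32, a 1.80-fold lower mean (edgeR unadjusted p = 0.0381, adjusted p = 0.579). The 11 pericyte and smooth muscle markers summed to 9670, 11566 and 3665 CPM in HET and 2815, 184 and 4780 CPM in KO, and 6 of the 9 tested were lower in KO by value. Their part in the Hspb6 values was not tested.

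Hspb7, a small heat shock protein of heart and skeletal muscle, varied more between libraries than between labels. It stood at 1.42, 57.7 and 193 CPM in HET and 0.728, 0 and 83.2 CPM in KO. Replicate 3 was the highest library under each label, and HET replicate 1 and KO replicates 1 and 2 were low. The count of 0 in KO replicate 2 allows a level of up to 0.0856 CPM, that of 3 counts before TMM scaling, for counting error only. The log2 fold change of -1.59 ± 2.37 was well within its error, and leaving out 1 library moved it between -7.79 and -0.08. The 8 skeletal muscle markers, of which Ckm was at 0 in every library and 3 were tested, summed to 187, 205 and 110 CPM in HET and 40.8, 10.1 and 179 CPM in KO, nearly all of it Acta1.

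Hspb1, the small heat shock protein of actin dynamics, stood at 82.5, 186 and 111 CPM in HET and 102, 77.9 and 139 CPM in KO, with HET replicate 2 highest. Hspb8 stood at 155, 211 and 168 CPM in HET and 233, 69.7 and 207 CPM in KO, with KO replicate 2 lowest and the rest close together. Hspb2, whose exons share 30.2% of their bases with Cryab on the opposite strand, stood at 0.496, 6.60 and 19.7 CPM in HET and 14.5, 1.55 and 2.66 CPM in KO. The log2 fold changes were -0.25 ± 0.37, -0.07 ± 0.45 and -0.51 ± 1.30, each smaller than its error. Without HET replicate 2 that of Hspb1 was 0.14. The median of the 6 tested small heat shock protein genes was -0.20 without KO replicate 2 and -0.15 without HET replicate 3, in place of -0.44.

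**Figure D3:**
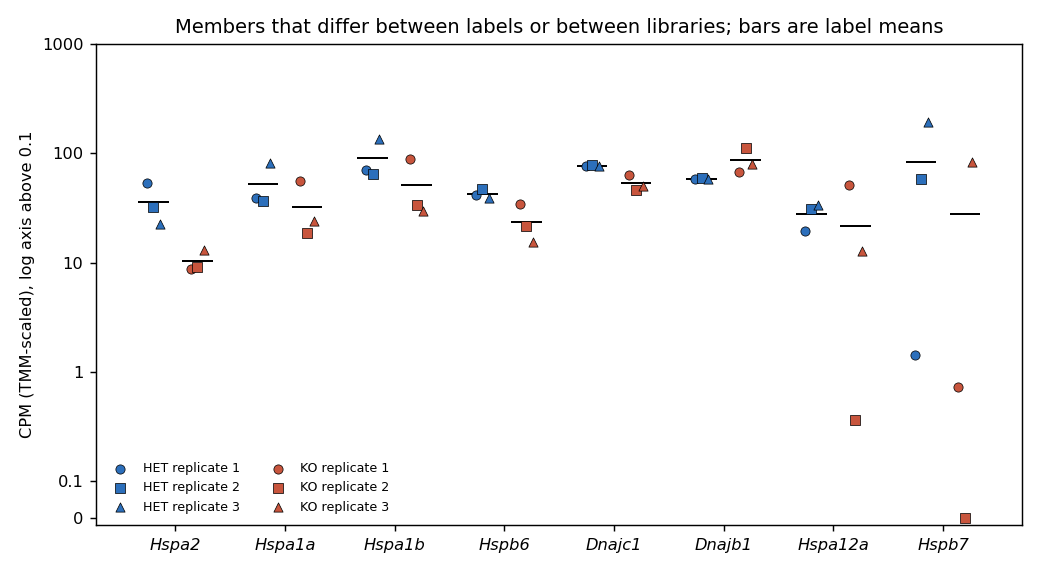
Level of 8 members in each library (y axis, CPM scaled by TMM factors, log axis above 0.1 and linear from 0 to 0.1), with blue for HET, red for KO, a marker shape per replicate number and bars for label means (n = 3). Hspa2, Hspb6 and Dnajc1 lie lower in all KO libraries and Dnajb1 higher, while Hspa12a and Hspb7 reach their lowest level in KO replicate 2.

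The DnaJ genes form the largest group, and in 19 of the 38 tested the log2 fold change was smaller than its standard error. Of the 38, 14 were higher and 24 lower in KO by value, with 3 at an unadjusted p under 0.05 (2 higher, 1 lower), where 8.59% of all genes were. Dnajc2, which docks HSP70 at the ribosome, stood at 21.6, 19.3 and 24.4 CPM in HET and 25.1, 44.1 and 38.0 CPM in KO. KO replicate 1 lay just above the HET range and the other KO libraries well above it. For Dnajc2 the log2 fold change was 0.71 ± 0.27 (edgeR unadjusted p = 0.0352, adjusted p = 0.579). Dnajc7, a partner of HSP70 and HSP90, stood at 59.0, 48.3 and 65.7 CPM in HET and 82.0, 86.4 and 66.6 CPM in KO, without overlap but with KO replicate 3 just above the highest HET library. Dnajc4 was lower in all KO libraries, at 10.4, 11.3 and 9.37 CPM in HET and 6.39, 6.84 and 8.37 CPM in KO (log2 fold change -0.52 ± 0.26).

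Dnajc9, a histone chaperone that is made with DNA replication, stood at 39.3, 22.4 and 43.5 CPM in HET and 68.4, 58.6 and 30.8 CPM in KO, lowest in HET replicate 2 and, among KO libraries, in replicate 3. For Dnajc9 the log2 fold change was 0.59 ± 0.39, or 0.34 and 0.35 on leaving out HET replicate 2 or KO replicate 1. In class A, Dnaja1 stood at 74.5, 91.5 and 121 CPM in HET and 87.4, 125 and 115 CPM in KO, and Dnaja2 at 166, 195 and 177 CPM in HET and 167, 264 and 162 CPM in KO. The log2 fold change of Dnaja1 was 0.19 ± 0.26, and leaving out 1 library moved it between 0.045 (HET replicate 1) and 0.40 (HET replicate 3). KO replicate 2 alone lay above the others for Dnaja2, whose log2 fold change was 0.14 ± 0.26 with that library and -0.13 without it. In class B, Dnajb6, which suppresses protein aggregation, stood at 88.0, 72.3 and 72.1 CPM in HET and 61.3, 53.9 and 78.9 CPM in KO, and Dnajb5 at 13.6, 19.4 and 16.0 CPM in HET and 12.3, 11.7 and 14.5 CPM in KO. Both were lower in KO by value with overlapping labels, and their log2 fold changes were -0.26 ± 0.21, or -0.15 without KO replicate 2 and -0.42 without KO replicate 3, and -0.35 ± 0.25, or -0.21 without HET replicate 2. Dnajb4 and Dnajb14 were highest in HET replicate 2 and KO replicate 3, the libraries with leukocyte transcripts, at 150.4 and 104.8 CPM for Dnajb4 (44.2, 73.0, 60.7 and 31.5 CPM in the other 4) and at 71.1 and 62.9 CPM for Dnajb14 (26.1 to 37.7 CPM in the other 4). The part of leukocyte transcripts in these levels was not tested.

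Some of these genes have processed pseudogenes, copies of their spliced transcript elsewhere in the genome, and counts on them bear on the levels of those genes. Matching pseudogene transcripts to the members (at least 90% identity over at least 80% of the pseudogene and 200 bases) found 36 pseudogene symbols for 15 members, and 29 of these reached a mean of 1 CPM. In 8 members the pseudogenes together exceeded the gene. Hspa8 had a mean of 1467 CPM against 2451 CPM on its 7 pseudogenes, among them Gm15459, which is 99.7% identical to it. Dnaja1 had 102 CPM against 168 CPM on 3, Hsp90aa1 587 against 749.6 on 5, and Hspd1 327 against 352 on 3. Cct3 had 254 CPM against 68.9 CPM on 1 pseudogene, and with it added the log2 fold change of Cct3 was 0.65 in place of 0.66.

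The shares varied little between libraries for some genes and more for others. For Hsp90aa1 the ratio of pseudogene to gene counts was 1.26 to 1.29, for Hspd1 1.04 to 1.14 and for Dnaja1 1.52 to 1.79. For Hspa8 it was 1.51 to 1.92, highest in KO replicates 1 and 2, for Dnajc17 1.64 to 3.21 and for Dnajc19 1.93 to 3.43. How reads that fit several places were assigned is unknown here, and reads of a gene and of such a copy cannot be told apart in these tables. With pseudogene counts added to the gene, the largest move in a log2 fold change was 0.16 (Dnajc17), 1 member changed sign (Dnajc19, from 0.02 to -0.02), and Hspa8 went from 0.07 to 0.18. No member passed the adjusted edgeR test in that fit.

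**Figure D4:**
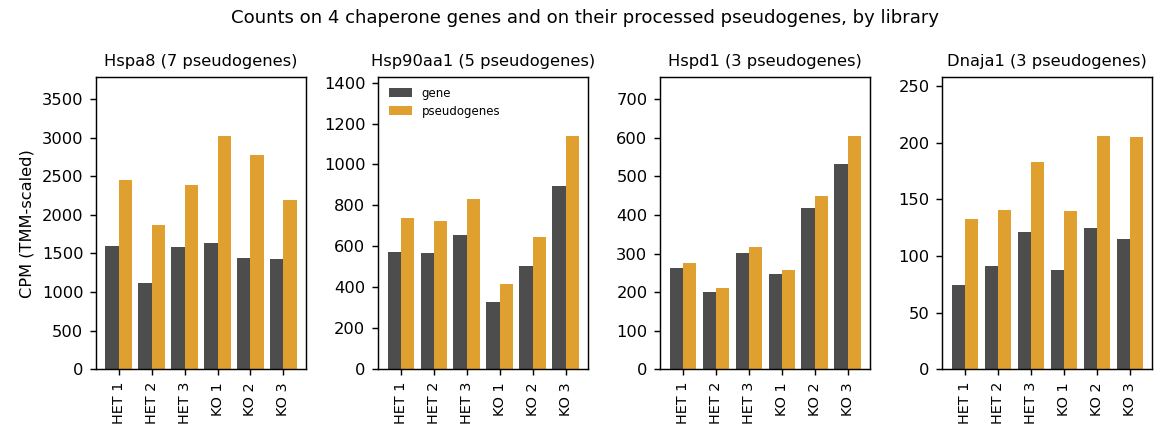
Counts on Hspa8, Hsp90aa1, Hspd1 and Dnaja1 (dark bars) and summed over their matched pseudogenes (orange bars) in each library, in CPM scaled by TMM factors (y axes from 0, a scale per panel). The pseudogene bar exceeds the gene bar in every library of all 4 panels, and follows it across libraries for Hsp90aa1 and Hspd1.

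Annotated exons were shared with another gene in 31 members, and in 28 of these with a gene on the opposite strand. The libraries were stranded per the labels' protocols, but the use of strand in counting is unknown here. Beside the genes named above, Hspa1l shares 71.9% of its exon bases with Gm10501, Dnaja4 44.1% with Wdr61, Hspa1a 19.0% with Gm20481 and Cct6a 12.5% with Psph, all on the opposite strand. Values of these genes are uncertain by that measure.

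Between genes, levels were compared per kilobase of annotated exon. Hsp90ab1 was the highest member at 744 CPM per kilobase on average over the libraries, followed by Hspa8 at 341, Hspa5 at 259, Hsp90b1 at 240 and Hsp90aa1 at 149. Hsp90ab1 exceeded every other member in each library, whereas Hspa5 and Hsp90b1 lay within their spread over libraries of each other. Hspa9 (137) and Cct2 (131) were also within their spread. This order uses counts on the gene alone. With pseudogene counts added, Hspa8 stood at 911, Hsp90ab1 at 882 and Hsp90aa1 at 340.1 CPM per kilobase, so the order depends on how those counts are assigned. The inducible Hspa1b and Hspa1a stood at 25.3 and 14.3 CPM per kilobase, and the 2 heat shock factors at 3.93 (Hsf1) and 1.69 (Hsf2).

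Genes that work with these chaperones were followed in 3 lists, and none of them passed the adjusted edgeR test. Of 36 cytosolic co-chaperone genes, 21 were higher and 15 lower in KO by value (median 0.09), and the unadjusted p was under 0.05 for 4 that were higher and 1 that was lower (4.3% and 4.29% over all genes). Fkbp4, an immunophilin of HSP90, stood at 70.5, 37.3 and 67.9 CPM in HET and 154, 208 and 95.5 CPM in KO, all KO libraries above the HET libraries (log2 fold change 1.38 ± 0.38). Ppid, another immunophilin of HSP90, stood at 31.9, 34.4 and 52.9 CPM in HET and 67.0, 89.0 and 74.0 CPM in KO (0.95 ± 0.26). Bag5, a nucleotide exchange factor of HSP70, was lower in each KO library at 24.7, 25.8 and 31.3 CPM against 55.0, 43.9 and 36.0 CPM in HET (-0.72 ± 0.23). The edgeR adjusted p was 0.579 for each of these 3 genes.

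Of 20 endoplasmic reticulum folding and stress genes, 6 were higher and 14 lower by value (median -0.15), and the unadjusted p was under 0.05 for 2 that were higher and 1 that was lower (4.3% and 4.29% over all genes). Hyou1, the HSP110 relative of that compartment, stood at 135, 126 and 132 CPM in HET and 204, 201 and 214 CPM in KO, with a narrow spread under both labels and no overlap (log2 fold change 0.65 ± 0.17). Ddit3, the stress factor CHOP, was lower in each KO library at 35.0, 23.5 and 38.1 CPM against 74.8, 81.5 and 51.3 CPM in HET (-1.10 ± 0.28). Ern1, which encodes the stress sensor IRE1, stood at 20.4, 41.4 and 34.0 CPM in HET and 164, 52.7 and 58.2 CPM in KO, with KO replicate 1 far above the rest (1.52 ± 0.52, and 0.79 without that library). The labels did not overlap in any of the 3, which were picked for the smallest unadjusted p of the list. Over the 20 genes the labels did not overlap in 5, where the share over all genes was 15.5%. All 3 had an edgeR adjusted p of 0.579.

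Of 14 mitochondrial folding and protease genes, 10 were higher and 4 lower by value (median 0.25), and 1, lower, stood at an unadjusted p under 0.05 (4.29% over all genes). That gene, the matrix protease gene Lonp1, stood at 171, 89.9 and 77.0 CPM in HET and 64.4, 61.0 and 61.3 CPM in KO, with the KO libraries nearly equal and below all HET libraries (log2 fold change -0.85 ± 0.33; edgeR adjusted p = 0.579). It was -0.42 without HET replicate 1. Grpel2, a nucleotide exchange factor of the matrix HSP70, stood at 21.5, 25.3 and 28.4 CPM in HET and 38.0, 32.1 and 34.1 CPM in KO (0.47 ± 0.20), higher in all KO libraries. Timm44, which anchors that HSP70 at the import channel, stood at 29.0, 22.8 and 28.0 CPM in HET and 36.0, 46.8 and 30.6 CPM in KO (0.51 ± 0.24, and 0.33 without KO replicate 2), also without overlap.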

How the data were processed

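The authors deposited, per library, estimated counts per gene that were not scaled between libraries (85.0% whole numbers), and RPKM values; the submitters' processing notes name cutadapt 1.2.1, Bowtie2, Partek and, as builds, mm10 and GRCm38. For annotation, counting method and use of strand, nothing was given in the sources used here. Of 48408 rows, 30 were left out because they held a biotype in place of a gene, and 7 symbols on more than 1 row were summed. The deposited RPKM divides by the whole gene span, introns included, since over 12162 genes 94.4% of the implied lengths kept 1 ratio to the span within 5% and 3.72% did so for exon length. Levels between genes are therefore CPM per kilobase of GENCODE M21 exons, and RPKM was used only in alternatives and in choosing which genes to name.

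Estimated counts were rounded, filtered by filterByExpr (defaults) and scaled by TMM. All genes were tested between the labels with edgeR's two-sided quasi-likelihood F test (edgeR 4.0.16, R 4.3.3), adjusted by Benjamini-Hochberg at a threshold of 0.05. The SE of a log2 fold change is its size over root F, and CPM values use TMM-scaled library sizes. Groups follow the genotype label of each library, and replicate numbers follow accession order and pair nothing. A floor of 3 counts was 0.0706 to 0.120 CPM and covers counting error only.

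On simulated data for 17584 genes, drawn at these libraries' dispersion trend, the test recovered 2%, 44%, 80% and 94% of genes changed by a fold of 2, 4, 8 and 16, with 6 unchanged genes called. At a fixed dispersion of 0.05 it recovered 56%, 100%, 100% and 100%, with 5 unchanged genes called. Which setting is closer to the members was not tested. The members and lists were chosen with earlier results of these data known. Genes were named by a rule: the heat shock factors, Hspa1a, Hspa1b, Hspd1 and Hspe1, in each class the 3 smallest unadjusted p and the 2 highest mean RPKM, members whose labels did not overlap or with a library 4-fold apart, and 3 genes a companion list. Other members given with values were chosen after their values were seen. Classes and compartments were assigned from general knowledge. Alternatives were other scalings and filters, DESeq2 1.42.0, limma-voom, limma 3.58.1 on log2(RPKM + 0.1) or log2(RPKM + 1), a block for the title number that 2 libraries share, and fits without 1 or 2 libraries. Pseudogene transcripts were matched to members by blastn, and promoter letters come from RefSeq (GRCm38.p6).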

Additional observations from a re-analysis of the deposited data

How the results depend on the processing

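The direction of all 8 tested TRiC subunits, and the count of 0 members past the adjusted edgeR threshold, were the same in each alternative edgeR or limma fit of the labels. DESeq2 called 1 member, Hspa2 (log2 fold change -1.81, adjusted p = 0.0139). Scaled by library size only, the median of all genes was 0.15 (log2), and that of all tested members was 0.11, of DnaJ class C 0.0017 and of the cytosolic or nuclear members 0.30, while Hsp90aa1 was 0.067. On log2(RPKM + 1) DnaJ class C was -0.0014 and the cytosolic or nuclear members 0.20; on log2(RPKM + 0.1) all members were 0.088, DnaJ class C 0.00077 and the cytosolic or nuclear members 0.23.

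The shared title number does not show that HET replicate 3 and KO replicate 3 were paired. With that number as a block, 4 members stood at an unadjusted p under 0.05 (1 higher and 3 lower in KO, beside 1055 genes in all), in place of 8. Without both libraries of that number the count was 2, beside 1545 genes in all. The medians were then -0.29 for DnaJ class C, -0.49 for HSP90 and 0.23 for the cytosolic or nuclear members. Hspa12a was 0.031 and Hspa5 -0.29.

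Leaving out 1 library at a time gave 2 to 12 members at an unadjusted p under 0.05, beside 648 to 2281 genes in all. The medians ran from -0.11 to 0.087 for all members, -0.43 to 0.052 for DnaJ class B and -0.22 to -0.017 for DnaJ class C. They ran from -0.49 to 0.21 for HSP90, -0.37 to 0.081 for HSP70 and 0.093 to 0.26 for the cytosolic or nuclear members. For the endoplasmic reticulum they ran from -0.27 to 0.023, and for unassigned members from -0.55 to 0.0021. Changes of sign in single genes were listed only for the 45 members named by the rule, so other tested members may turn as well. Among the 45, those that changed sign ran from -0.13 to 0.27 (Dnaja2), -3.08 to 0.24 (Dnajb3), -0.53 to 0.21 (Hsp90aa1) and -0.49 to 0.018 (Hsp90b1). The others ran from -2.11 to 0.20 (Hspa12a), -0.19 to 0.28 (Hspa5), -0.083 to 0.16 (Hspa8) and -0.50 to 0.14 (Hspb1). The cause was not tested.

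The next 3 alternatives were chosen after seeing the data. Without HET replicate 2 and KO replicate 3, which held leukocyte transcripts, 2 members stood at an unadjusted p under 0.05, beside 987 genes in all. The median was then -0.59 for HSP90 and 0.10 for the cytosolic or nuclear members, Hspa5 was -0.28 and Hspa8 -0.065. With KO replicate 2 as the only KO library, assumed to vary like the HET libraries, 14 members stood at an unadjusted p under 0.05. The number and the share of all genes under that p were also higher in this fit than with all libraries. A single KO library has no spread of its own, so the 14 are not read as a difference particular to chaperones. In this fit the medians were -0.18 for all members and 0.44, -0.64 and -0.31 for DnaJ classes A, B and C. They were -0.39 for HSP70, -1.17 for small heat shock proteins and 0.24 for the cytosol or nucleus. They were -0.47 for the endoplasmic reticulum and -1.05 for unassigned members, and Hspa5 was -0.32. With pseudogene counts added, the cytosolic or nuclear median was 0.24. The median SE of the tested members was 0.28 (log2), and the part of depth in it was not tested.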
